A study of Mus musculus with 12 samples.

Results

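Cytosolic ribosomal protein genes encode the protein part of the cytoplasmic ribosome. They were taken as every gene whose symbol is Rpl or Rps followed by a number, with or without a final a, x or l, together with Rplp0, Rplp1, Rplp2 and Rpsa. The rule found 82 of the 25124 genes listed, 32 of the small subunit, 47 of the large subunit and the 3 stalk proteins. Levels were bulk retina RNA values in FPKM, that is fragments set per transcript length and per sequencing depth. A mean of at least 0.5 FPKM was reached by 79 of the 82 in both tables of the study, and Rpl3l, Rpl10l and Rpl39l did not reach it.

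The study asked how age and mild elevation of intraocular pressure (IOP) change the retina of wild-type C57BL/6J mice. A single elevation to 30 mmHg for 1 h was given to 1 eye at 3 or 18 months of age, and the untreated eye on the other side served as control. In a separate experiment the elevation was given 4 times, biweekly, starting at 3 months of age (4xIOP), again with the other eye as control. Retinas were collected 2 days after the last elevation, giving 12 libraries in 6 groups of 2 (3mo control, 3mo IOP, 18mo control, 18mo IOP, 4xIOP control and 4xIOP). The labels do not say which control eye belongs to which treated eye, nor whether a library is a single animal, so p-values measure the spread between these libraries only.

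A ribosome contains about a single copy of nearly every ribosomal protein, and cells coordinate the output of these genes both by transcription and by translation. Most of their mRNAs begin with a C followed by an unbroken run of pyrimidines, the 5′ terminal oligopyrimidine or TOP motif, through which the mTORC1 kinase pathway and the RNA-binding protein Larp1 set how much of the mRNA is translated. Retinal neurons, photoreceptors above all, renew much of their protein throughout life and so depend on steady ribosome supply.

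The start of the transcript is shown for members that the comparisons below turn on, because a TOP motif, where present, lies there. Each line gives 15 bases before the annotated start and 15 bases from it onward, from RefSeq on GRCm38.p6 (mm10), with the run of C and T that covers the start in capitals. The windows are Rps6 at chr4:86857353-86857382 on the minus strand, Rplp2 at chr7:141447636-141447665 on the plus strand, Rpl35 at chr2:39005117-39005146 on the minus strand, Rps24 at chr14:24490663-24490692 on the plus strand, Rpl38 at chr11:114668565-114668594 on the plus strand, Rpl39 at chrX:37085208-37085237 on the minus strand and Rpl10a at chr17:28328550-28328579 on the plus strand.
Rps6: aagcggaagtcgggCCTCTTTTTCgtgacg
Rplp2: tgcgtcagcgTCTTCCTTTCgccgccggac
Rpl35: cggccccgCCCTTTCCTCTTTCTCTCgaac
Rps24: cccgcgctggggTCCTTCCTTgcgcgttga
Rpl38: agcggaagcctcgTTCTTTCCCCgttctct
Rpl39: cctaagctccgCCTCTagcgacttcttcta
Rpl10a: gctctatttgagcgcatgcgcaaagcgctc
The first 6 lines hold a run of at least 5 pyrimidines over the start, of which the run of 18 bases at Rpl35 was the longest of these, whereas Rpl10a has no pyrimidine at its annotated start. Such a run may begin before the start, so it is not in itself a TOP motif. At Rps24 and Rpl39 the annotated first base is T, and at Rpl39 the next base is A. A start window within 50 bases of the deposited transcript start was found for 58 of the 79 tested members. Of these, 19 (32.8%) had a run of at least 5 C or T bases over the start, against 9.51% of 10198 other tested genes. Such a run with C as the first base was found in 14 of the 58 (24.1%), against 5.30% of the others. In the 300-base windows around the start, CCGGAAG, the core recognised by ETS factors, was found on either strand in 23 of the 58 (39.7%) and in 18.0% of the others. AAGATGG, the core of the YY1 motif, was found in 15.5% against 7.08%, and TATAAA in 12.1% against 7.37%. These matches are descriptions of letters in a window, and an annotated start can lie some bases from the start used in retina.

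Levels differed widely among members of what is a stoichiometric complex. Averaged over the 8 single-IOP libraries, they ran from 2.22 FPKM for Rps13 to 870 FPKM for Rplp1, a 392-fold range, and 17 of 79 lay below 10 FPKM while 25 lay above 100 FPKM. The highest were the stalk protein Rplp1, Rps15 (553 FPKM), Rpl41 (493 FPKM), Rpl13a (441 FPKM) and Rpl32 (396 FPKM), which together held 30.8% of the members' summed FPKM. The order was similar in the repeated-IOP table (Spearman rho of 0.904 across 79 genes, which are not independent replicates).

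Ribosomal protein genes have many near-identical processed copies in the genome, and only uniquely mapped tags were counted. For each member the share of its 50-base words found in no other annotated transcript was therefore computed. The words came from a matched GENCODE transcript, whose length can differ from that of the counted transcript. The 21 members with under 25% unique words had a median of 12.6 FPKM, the 47 members between 25% and 75% a median of 59.7 FPKM, and the 11 members above that a median of 135 FPKM. Across the 79 members the Spearman rho of level against the share of unique words was 0.324 for 50-base and 0.510 for 100-base words. Low levels of members such as Rpl10 (7.87% unique 50-base words, 6.83 FPKM), which joins the large subunit late in its assembly, are therefore uncertain, and the part of unique mapping in them was not tested. For the change with age in control eyes the rho was -0.222 for 50-base and -0.344 for 100-base words.

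Libraries held 39766234 to 59455051 tags, with 44.2% to 71.5% of them in exons. The 2 libraries of 3mo control stood apart from each other: every 1 of the 79 members was higher in replicate 2 than in replicate 1, by a median of 2.34-fold and by 1.43-fold (Rpl4) to 4.08-fold (Rpl35a). In 4xIOP, 78 of 79 were higher in replicate 2, by a median of 1.64-fold. In the other groups the replicates differed by medians of 1.03-fold to 1.21-fold. The main counts and medians that rest on 3mo control or 4xIOP are therefore given with and without these libraries.

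**Figure D1:**
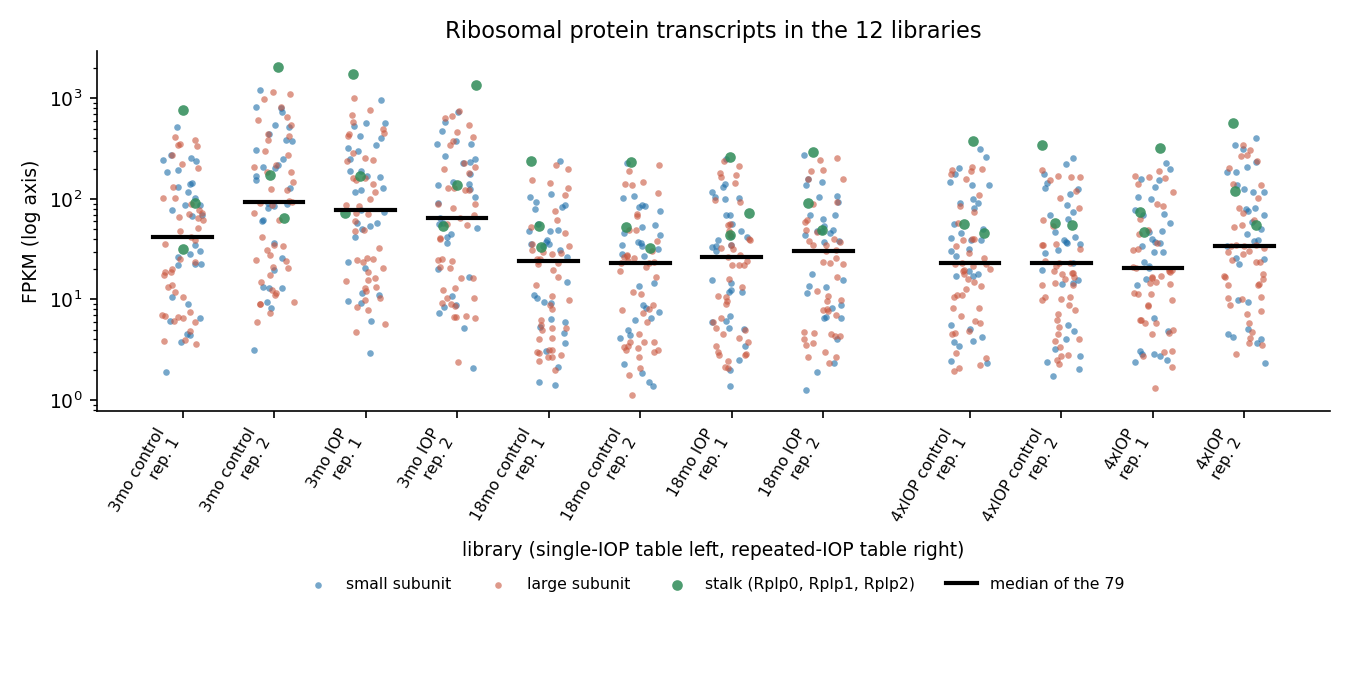
FPKM of the 79 tested members in each library on a log axis, 1 point a gene, coloured by subunit, with the median of the 79 as a bar. At 3 months the medians were 41.4 and 92.8 FPKM for control and 78.4 and 64.3 for IOP eyes, and at 18 months 24.4 and 23.0 for control and 26.7 and 30.7 for IOP eyes, so that every 18mo library lay below every 3mo library.

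To ask what age did in untreated eyes, 18mo control was compared with 3mo control. Ribosomal protein mRNAs were lower at 18 months in both subunits: all 79 had a negative fitted change, and 67 of 79 were called lower at an adjusted p of at most 0.05 and at least 2-fold (limma, Benjamini-Hochberg over 13731 genes), whereas 11.6% of all tested genes were called lower. The median change was -1.84 on the log2 scale, or 3.57-fold lower, beside 0.16 for all tested genes, where folds are on the scale of log2(FPKM + 0.5) and understate changes of low genes. With median-of-ratios scaling the medians were -2.01 for the members and 0.0096 for all genes. The small subunit had a median of -1.92 with 26 of 32 called lower, and the large subunit outside the stalk had a median of -1.80 with 39 of 44 called. In 76 of 79 both 18mo libraries lay below both 3mo libraries, against 32.8% of all tested genes. In bulk tissue, fewer cells of a type and less RNA per cell cannot be told apart.

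Among small-subunit proteins, Rpsa, also known as the laminin receptor, measured 102 and 203 FPKM in the 3mo control replicates and 35.6 and 34.8 FPKM in 18mo control. Its groups did not overlap, and its change was -2.02 ± 0.32 (SE, limma, adjusted p = 0.00566). Rps3, which lines the mRNA entry of the small subunit, measured 196 and 523 against 83.6 and 86.7 FPKM, a change of -1.91 ± 0.40 (limma, adjusted p = 0.00948). Rps19, the gene most often mutated in Diamond-Blackfan anaemia, stood at 78.5 and 218 against 33.7 and 36.0 FPKM and changed by -1.89 (limma, adjusted p = 0.0101). It is listed under a non-coding RefSeq transcript, as is Rps27. In each of these genes the older pair lay close together and the younger pair far apart.

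Rps6, the substrate of S6 kinase downstream of mTORC1 whose start is shown above, was one of the low members, at 4.58 and 9.45 FPKM in 3mo control and 3.09 and 2.26 FPKM in 18mo control. It was called lower with a smaller change of -1.17 ± 0.32 (limma, adjusted p = 0.0199). Rps27a, made as a fusion with ubiquitin, changed by -1.57 (limma, adjusted p = 0.0155).

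In the large subunit, Rpl39, a small protein of the peptide exit tunnel, had the lowest fold change of all members, from 102 and 383 FPKM at 3 months to 31.3 and 24.4 FPKM at 18 months, 7.05-fold lower (-2.82 ± 0.51, limma, adjusted p = 0.00699). Rpl35a was next at -2.69 and Rps28 of the small subunit at -2.54, both called. Rpl41, which encodes the shortest ribosomal protein, fell from 410 and 1117 FPKM to 144 and 149 FPKM (-2.20 ± 0.43, limma, adjusted p = 0.00803). Rpl38, known for its part in the translation of Hox mRNAs, fell from 18.6 and 41.5 FPKM to 5.22 and 5.93 FPKM (-2.23 ± 0.36, limma, adjusted p = 0.00574).

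Rpl3, which reaches toward the peptidyl transferase centre, changed by -1.51 (limma, adjusted p = 0.0125). Rpl22, which also binds viral and cellular RNAs, changed by -1.63 (adjusted p = 0.0115). Rpl5 and Rpl11, which carry the 5S rRNA into the subunit and bind Mdm2 when ribosome assembly is disturbed, changed by -1.02 and -1.46, and both were called (limma, adjusted p = 0.0126 and 0.0254). Rpl10 was not called (-0.67 ± 0.25, limma, adjusted p = 0.0612).

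The 3 stalk proteins, which recruit the elongation factors, did not move alike. Rplp1, on chr9:61913283-61914510, measured 775 and 2048 FPKM in 3mo control and 236 and 232 FPKM in 18mo control (-2.43 ± 0.43, limma, adjusted p = 0.0067). Rplp0, the scaffold of the stalk, measured 90.5 and 174 against 53.6 and 52.7 FPKM (-1.23 ± 0.31, adjusted p = 0.0153). Its partner Rplp2 measured 31.5 and 64.9 FPKM at 3 months and 33.6 and 32.5 FPKM at 18 months. The Rplp2 groups overlapped, and its change of -0.45 ± 0.32 was not called (limma, adjusted p = 0.274).

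Of the 12 members not called, Rps2 and Rpl8 passed the adjusted p but changed by less than 2-fold, and Rpl10, Rpl10a, Rpl17, Rpl28, Rplp2, Rps4l, Rps9, Rps12, Rps13 and Rps27 did not pass it. The smallest changes were -0.05 for Rps4l, -0.32 for Rpl10a and -0.44 for Rps13 (limma, adjusted p = 0.884, 0.318 and 0.196). Rpl10a, which lies beside the E site, stood at 23.5 and 34.2 FPKM at 3 months and 24.4 and 21.0 FPKM at 18 months, and its groups overlapped.

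To see which members departed from the rest, values were also fitted after subtracting each library's median over the members, which removes their common shift. Of the 79, 22 then lay below the others and 3 above them with age at an adjusted p of at most 0.05 (limma over all tested genes). Of all tested genes, 1.09% lay below and 65.9% above the members' median in this fit. The centring shifts most other genes, and 9200 of 13731 passed, so the adjustment over all genes was lenient for members. Rpl23, for example, had a limma p of 0.0207 and an adjusted p of 0.0337. An adjustment over the 79 members alone was not run. Without 3mo control replicate 1 the counts were 40 below and 13 above, against 2.16% and 87.7% of all tested genes, and without replicate 2 they were 37 and 4, against 1.94% and 59.1%. The 12 with the smallest p were Rplp1, Rpl39, Rps24, Rps14, Rpl35a, Rpl32, Rpl35, Rps4l, Rpl26, Rps25, Rps21 and Rpl41, of which all but Rps4l lay below the others. Rplp1 lay 1.05 log2 units below the common shift (relative change -1.05, adjusted p = 0.00272) and Rpl39 1.44 below it (relative change -1.44, adjusted p = 0.00319). Those above were Rps4l (1.32, adjusted p = 0.00526), Rpl10a (1.05, adjusted p = 0.0185) and Rplp2 (0.93, adjusted p = 0.0159). Abundant members tended to show the more negative change, with a Spearman rho of -0.483 between level and change across 79 genes of the same libraries.

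The start sequences shown above were set beside this order. The median change in control eyes was -1.45 for the 19 members with a pyrimidine run and -1.86 for the 39 without, and it ran from -2.82 to -0.45 in the former. It was -1.93 for the 23 members with CCGGAAG in the window and -1.63 for the 35 without. Levels and lengths also differed, with medians of 28.1 FPKM and 589 bases with a run, and 39.1 FPKM and 715 bases without. With CCGGAAG they were 43.0 FPKM and 677 bases, and without it 28.1 FPKM and 696 bases. What part level or length had in these differences was not tested. Of the 19 with a run, 4 lay below the common shift, Rpl35, Rpl39, Rps21 and Rps24, and Rplp2 lay above it, and of the 39 without, 12 lay below and 1, Rpl10a, above.

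Transcript length moved with this result and has to be read beside it. Members had a median transcript of 715 bases, against 2890 bases for other protein-coding genes, and other coding genes with short transcripts had negative median changes at 18 months, though some were called higher, 4 of the 105 below 500 bases among them. Across the 79 members the Spearman rho of change against length was 0.357, and across 12746 other protein-coding genes it was 0.412. Below 500 bases the 18 members had a median change of -2.28 and the 105 other coding genes -1.75, of which 67.6% were called lower. Between 500 and 750 bases the medians were -1.86 for 27 members and -1.21 for 333 others, and between 750 and 1000 bases they were -1.34 for 14 members and -0.99 for 508 others.

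Members with longer listed transcripts were also lower. Length here is that of the 1 isoform listed per gene, which can differ from the form present in retina. The latter was not measured. Between 1000 and 2000 bases all 16 members were called lower, with a median of -1.69, while the 2861 others had a median of -0.21 and 17.7% were called. From 2000 bases up, the 4 members had a median of -1.47 and all 4 were called, while 8939 others had a median of 0.36 and 4.28% were called. The 3 longest were Rps15a (5127 bases, -1.31, adjusted p = 0.0261), Rps20 (3440 bases, -2.32, adjusted p = 0.00623) and Rpl22 (2147 bases). The 3 shortest were Rpl38 (310 bases), Rps21 (375 bases, -2.43) and Rps29 (385 bases, -2.33), the last of which measured 6.07 and 13.4 FPKM at 3 months and 1.42 and 1.39 FPKM at 18 months. When a smooth trend on length was removed from every library, 43 of 79 were called lower, all of them among the 67, against 9.02% of all tested genes. The median was then -1.04 and 9 members were positive. What part length-dependent recovery of RNA had in the decrease was not tested.

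**Figure D2:**
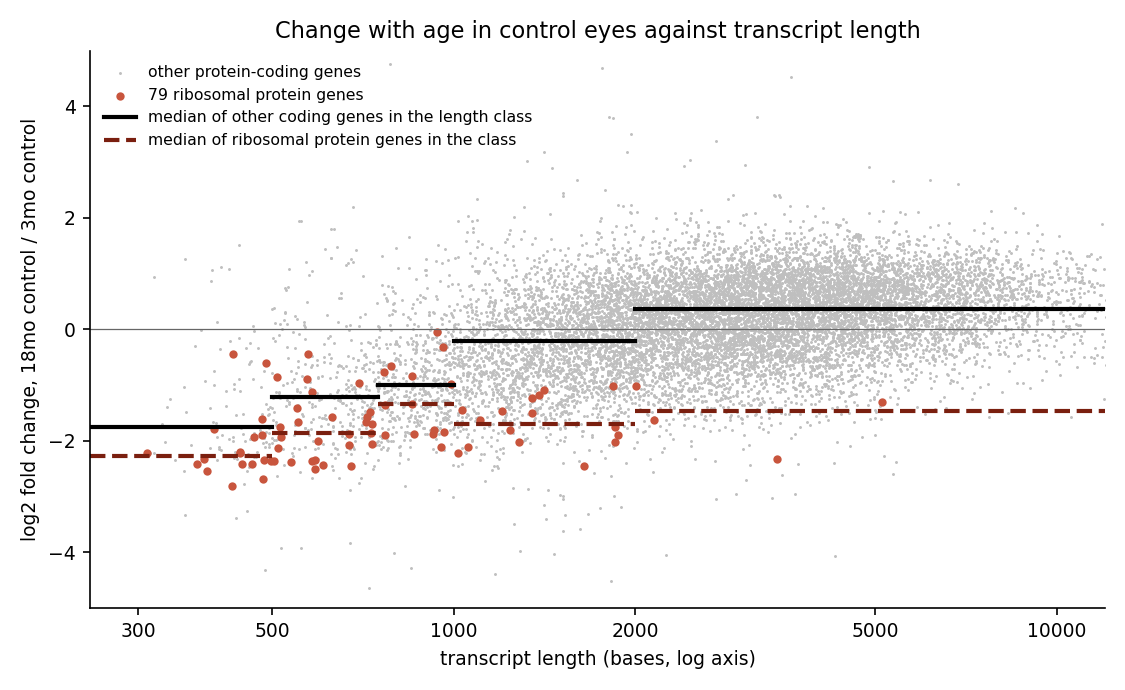
Log2 fold change of 18mo control against 3mo control on transcript length (log axis), with the 79 members in red, other protein-coding genes in grey and medians of length classes as solid (others) and dashed (members) lines. The members' median lay below that of the other genes in every class, at -2.28 against -1.75 under 500 bases and at -1.47 against 0.36 from 2000 bases up, and points beyond the axes are not drawn.

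The same measure set the young libraries apart from each other. Short transcripts (under 1000 bases) and long transcripts (4000 bases or more) were compared by the ratio of their median FPKM. It was 1.71 and 4.03 in the 3mo control replicates and 2.85 and 2.51 in 3mo IOP. The ratios at 18 months were 1.23 and 1.18 in control and 1.16 and 1.31 in IOP eyes, and in the repeated experiment they were 1.62 and 1.51 in 4xIOP control and 1.34 and 2.06 in 4xIOP. Without 3mo control replicate 2, where the ratio was 4.03, 51 members were called lower, against 5.67% of all tested genes in that fit, 21 of the small subunit and 29 of the large subunit outside the stalk, and the median change was -1.21. From 2000 bases up 1 of 4 was then called, and between 1000 and 2000 bases 10 of 16. Without replicate 1, 73 were called, against 15.2% of all tested genes, and the median was -2.4. Leaving out a library of 18mo control left the median near its value, at -1.86 and -1.79, but brought the calls to 43 and 29, against 5.75% and 4.12% of all tested genes.

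The members that differed most between the 3mo control replicates were also those that changed most with age in libraries that took no part in that difference. Across the 79 members, the log2 ratio of 3mo control replicate 2 to replicate 1 and the change from 3mo IOP to 18mo IOP had a Spearman rho of -0.732. Across 12746 other coding genes the rho was -0.673. The corresponding rho for the 3mo IOP replicates, set against the change in control eyes, was -0.230 for members and 0.074 for others. For the 18mo control replicates, set against the change in IOP eyes, it was -0.0080 and 0.044, and for the 18mo IOP replicates, set against the change in control eyes, 0.269 and 0.0068.

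**Figure D3:**
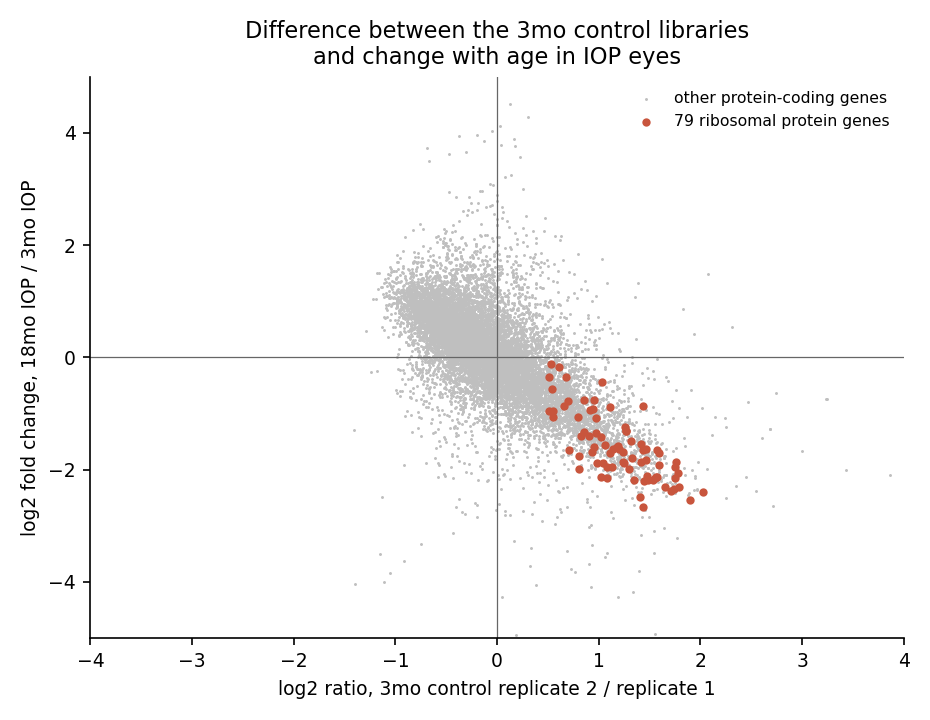
Log2 ratio of the 2 libraries of 3mo control (x) against the log2 fold change of 18mo IOP over 3mo IOP (y), with 79 members in red and other coding genes in grey. The axes share no library, and genes higher in 3mo control replicate 2 tended to be lower at 18 months, members and others alike (rho of -0.732 and -0.673).

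The treated eyes gave a comparison of age whose fold changes share no library with the first, though the eyes may come from the same animals. Both comparisons came from 1 fit, which gives a gene the same SE in each. Their p-values and calls are therefore not separate. All 79 members again had negative fitted changes in 18mo IOP against 3mo IOP, and 63 were called lower, against 11.6% of all tested genes (limma). The median was -1.69, or 3.22-fold lower, beside 0.09 for all genes. In 75 of 79 both 18mo IOP libraries lay below both 3mo IOP libraries, as in 34.5% of all tested genes. All 63 were also among the 67 called in control eyes, and across the 79 members the changes in control and IOP eyes had a Pearson r of 0.960. All 4 libraries at 18 months lay below all 4 at 3 months for 69 members, and for 24% of all tested genes.

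The lowest members in treated eyes were Rps16, which fell from 53.6 and 45.0 FPKM at 3 months to 6.08 and 8.82 FPKM at 18 months (-2.66 ± 0.41, limma, adjusted p = 0.00546), Rpl39 (-2.54, adjusted p = 0.0096) and Rplp1. Rplp1 went from 1758 and 1357 FPKM at 3 months to 261 and 290 FPKM at 18 months (-2.49, adjusted p = 0.00689), and Rpl41 1001 and 748 against 182 and 195 FPKM (-2.20, adjusted p = 0.00903). Rplp0 passed the adjusted p with a change under 2-fold (-0.92, adjusted p = 0.0426). The smallest changes were -0.12 for Rpl10a, -0.18 for Rps13 and -0.35 for Rpl28, a large-subunit protein, none of which passed (limma, adjusted p = 0.726, 0.604 and 0.36), and Rplp2 stood at -0.43 (adjusted p = 0.298). Relative to the member median, 19 lay below, against 1.11% of all tested genes, and 3 above, against 59.6%, the latter being Rpl10a, Rplp2 and Rps4l as in control eyes. The adjustment was again lenient for members, as 8331 of all tested genes passed in this fit.

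Both 3mo IOP libraries lay between the 3mo control replicates in median, and the calls in treated eyes changed when either was left out. Without 3mo IOP replicate 1, 5 members were called lower, against 1.94% of all tested genes in that fit, and without replicate 2, 11 were, against 2.34%, with medians of -1.55 and -1.88. Leaving out replicate 1 or 2 of 18mo IOP gave 44 and 47 calls, against 10.5% and 8.32% of all tested genes. With the length trend removed the median was -0.81 with 11 members positive, and 28 were called, all of them among the 63, against 7.42% of all tested genes.

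**Figure D4:**
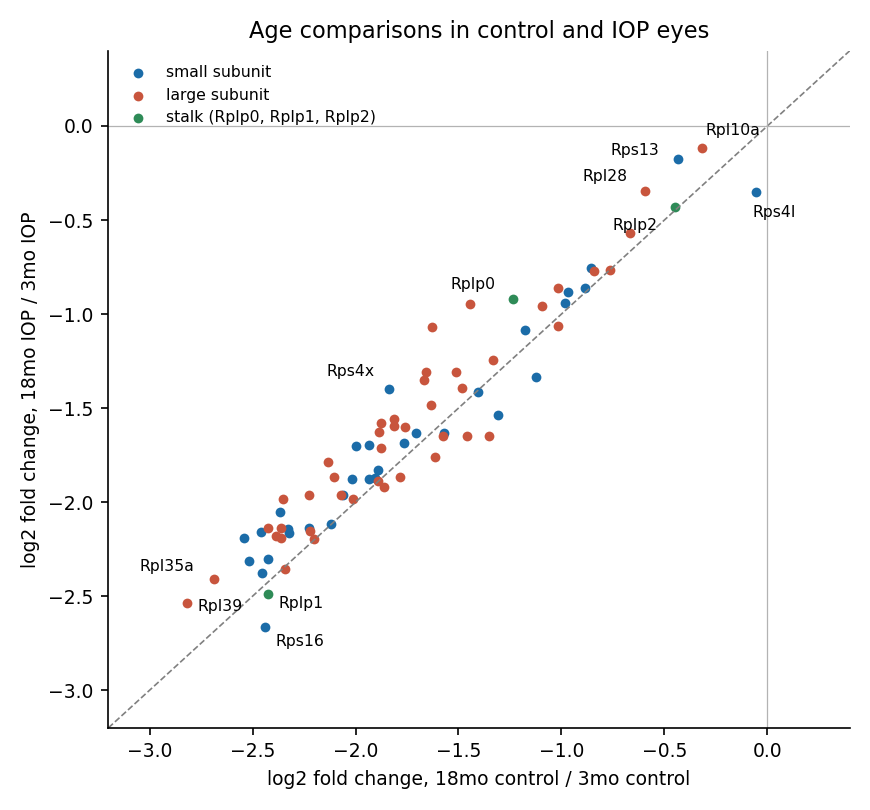
Log2 fold change with age in control eyes (x) and IOP eyes (y) for the 79 members, coloured by subunit, with the line of equal change dashed. All points lie below 0 on both axes, Rpl39 and Rps16 at the lower end and Rps4l, Rpl10a and Rps13 at the upper end.

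Paralogs were set beside their partners. Rps4x, the X-linked gene that makes the usual Rps4 protein in mice, measured 132 and 247 FPKM in 3mo control and 47.7 and 52.9 FPKM in 18mo control (-1.84 ± 0.28, limma, adjusted p = 0.00545), and -1.40 in IOP eyes (adjusted p = 0.00971). Rps4l on chr6:148354656-148355596, listed under a non-coding RefSeq transcript, measured 22.4 and 36.0 FPKM against 26.7 and 28.1 FPKM, with overlapping groups, and changed by -0.05 in control and -0.35 in IOP eyes, neither called (adjusted p = 0.308 in IOP eyes). The transcripts are of nearly the same length, at 963 and 940 bases. Rps27l, a p53 target in many cells, measured 26.4 and 91.7 FPKM in 3mo control and 11.1 and 7.52 FPKM in 18mo control (-2.37 ± 0.49, limma, adjusted p = 0.00915), and -2.05 in IOP eyes (adjusted p = 0.0153).

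The tissue-restricted paralogs were at or near 0. Rpl10l, a testis gene, was listed at 0 in all 12 libraries. Rpl39l, also known from testis, reached at most 0.46 FPKM (3mo IOP replicate 1), and Rpl3l, a muscle gene, at most 0.155 FPKM (18mo control replicate 1).

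A single elevation at 3 months was compared with its control next. None of the 79 was called higher or lower in 3mo IOP (limma), where 0.568% of all tested genes were called higher, and no member had an unadjusted p under 0.05, against 8.51% of all tested genes, or was called by voom on recovered reads. The fitted change was positive for 70, with a median of 0.18 beside 0.13 for all genes, and with median-of-ratios scaling the medians were -0.017 for the members, with 35 positive, and -0.04 for all genes. Groups did not overlap in 1 member, higher in 3mo IOP, against 28.6% of all tested genes. That member was Rps4l, with 50.5 and 36.6 FPKM against 22.4 and 36.0 FPKM in its controls, which also had the highest change (0.59 ± 0.26, limma, adjusted p = 0.616).

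Rps27l followed at 0.52 and Rps27 at 0.48 (limma, adjusted p = 0.948 and 0.93). The lowest were Rpl28 (-0.46), Rpl38 (-0.19) and Rpl31 (-0.11), with adjusted p of 0.849, 0.998 and 0.999. The direction depended on which 3mo control library was used: without replicate 1 the median was -0.44, and without replicate 2 it was 0.81.

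At 18 months most members had slightly higher fitted values in IOP eyes. The fitted change was positive for 76 of 79 with a median of 0.28, beside 0.09 for all genes, but 0 were called (limma), as with voom, where 0.117% of all tested genes were called higher. The 1 member with an unadjusted p under 0.05 was Rpl27a, whose change of 0.53 ± 0.22 had a limma adjusted p of 0.493, whereas 9.45% of all tested genes had an unadjusted p that low. In 57 of 79 both 18mo IOP libraries lay above both 18mo controls, against 36.5% of all tested genes. The highest were Rps27l, with 15.5 and 18.1 FPKM against 11.1 and 7.52 FPKM in its controls (0.84 ± 0.49, limma, adjusted p = 0.799), Rplp0, with 71.9 and 90.3 FPKM against 53.6 and 52.7 FPKM in its controls (0.60, adjusted p = 0.677), and Rps24 (0.59, adjusted p = 0.916).

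The lowest were Rpl28 (-0.21), Rps15a (-0.07) and Rpl13 (-0.02), each with an adjusted p of 0.999. Rpl28 was the 1 member with both IOP libraries below both controls, as in 9.89% of all tested genes. The median was 0.17 with median-of-ratios scaling, when 70 were positive, and 0.057 with the length trend removed, when 49 were positive.

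The responses at 18 and 3 months were compared in an interaction term. No member passed the adjusted p in limma, nor did any of the 13731 tested genes, and 0 members passed with voom. An unadjusted limma p under 0.05 was found for 0 members and for 218 of all tested genes. The median difference was 0.11 beside -0.04 for all genes. Without 3mo control replicate 1 the median difference was 0.73, and without replicate 2 it was -0.49, with 0 members passing in either. The largest differences were 0.56 ± 0.31 for Rpl27a, 0.50 for Rpl31 and 0.44 for Rps4x, and the lowest -0.30 for Rps4l, -0.30 for Rpl13 and -0.23 for Rps15a. On simulated data, limma recovered 84.4% of genes with an interaction of 2 log2 units, a difference far above any of these.

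After 4 elevations, 71 of 79 members had a positive fitted change, with a median of 0.20 beside 0.10 for all genes, and 0 were called (limma), nor by voom, where 5.45% of all tested genes were called higher. Of the 79, 5 members, namely Rpl10, Rps23, Rps27l, Rps12 and Rplp0, had an unadjusted p under 0.05, as did 15.4% of all tested genes. In 14 of 79 the 4xIOP libraries lay above both controls, a smaller share than the 27.7% of all tested genes. Rps27l, at 17.3 and 14.2 FPKM in control and 20.5 and 37.8 FPKM in 4xIOP, was the highest (0.81 ± 0.30, limma, adjusted p = 0.161). Rplp0, with 74.5 and 120 FPKM against 56.2 and 55.0 FPKM in its controls, was next (0.76 ± 0.33, adjusted p = 0.263).

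Rps23, which sits at the decoding centre, had a like change (0.76 ± 0.25, limma, adjusted p = 0.108), at 2.34 and 1.72 FPKM in control and 2.76 and 5.04 FPKM in 4xIOP. Rpl10 had the smallest p, with 5.799 and 8.76 FPKM against 4.54 and 3.85 FPKM in its controls (0.71 ± 0.23, adjusted p = 0.093). In these 4 genes the groups did not overlap, and replicate 2 of 4xIOP was the higher. The lowest were Rps16 (-0.27), Rpl10a (-0.24) and Rps29 (-0.13), with adjusted p of 0.811, 0.857 and 0.908. Without 4xIOP replicate 1 the median was 0.56 and 2 were called higher, against 5.2% of all tested genes in that fit, and without replicate 2 it was -0.12 with 0 called. With the length trend removed it was -0.065 with 33 positive, and with median-of-ratios scaling 0.09 with 56 positive.

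**Figure D5:**
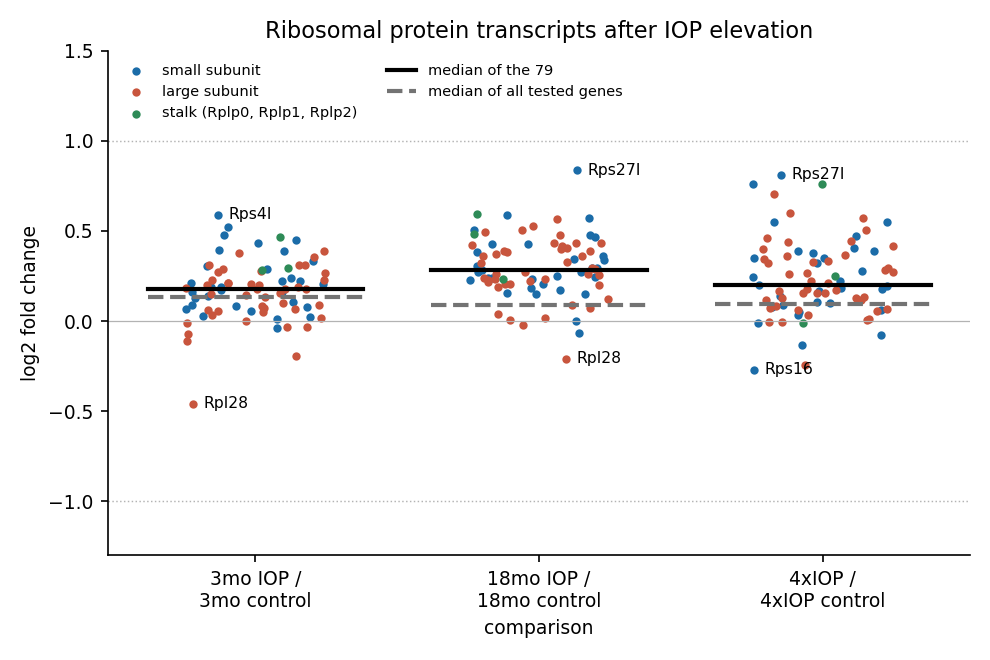
Log2 fold change of IOP over control eyes for the 79 members in the 3 comparisons, coloured by subunit, with the median of the members as a solid and that of all tested genes as a dashed line, and dotted lines at 2-fold. No member reached 2-fold in any of the 3, Rps27l was highest at 18 months and after 4 elevations (0.84 and 0.81), and Rpl28 was lowest at both ages.

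Rps4l was the 1 member without overlap and higher in IOP eyes in all 3 comparisons, which share no library with each other, as were 10.8% of the 13059 genes tested in both tables. It stood at 17.7 and 19.5 FPKM in 4xIOP control and 23.6 and 25.1 FPKM in 4xIOP (0.38 ± 0.24, limma, adjusted p = 0.583). It was singled out after its values were seen, and it passed the threshold in none.

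As a single measure, the share of exon reads that came from the 82 genes was 0.976% and 2.28% in 3mo control and 1.72% and 1.55% in 3mo IOP. It was 0.421% and 0.413% in 18mo control and 0.489% and 0.512% in 18mo IOP. In the repeated experiment it was 0.730% and 0.633% in 4xIOP control and 0.689% and 0.956% in 4xIOP. The 95% Wilson intervals were at most 0.0101 percentage points wide and cover counting error only. The groups of different age did not overlap in either eye, nor did the 18mo groups, and each gave an exact two-sided permutation p of 0.333, the smallest that 2 against 2 allows. The 3mo and 4xIOP groups overlapped (exact permutation p = 1 and 0.667).

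Other genes of the translation machinery were read beside the members in the age comparison of control eyes, where 11.6% of all tested genes were called lower. Ribosomal proteins outside the symbol rule had a median of -1.72, with 4 of 6 called lower and 0 higher. They included Fau, the fusion that makes Rps30 (-1.98, limma, adjusted p = 0.00732), Rack1, the scaffold on the small subunit (-1.52, adjusted p = 0.0076), and Rpl7l1, which had the smallest change (-0.94). Host genes of small nucleolar RNAs, whose spliced transcripts often carry a TOP motif, had a median of -1.64, with 5 of 7 called lower against the same 11.6%, from -1.92 for Snhg6 to -0.75 for Snhg5. Both lists hold short transcripts, with median lengths of 637 and 699 bases.

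Elongation factors and other TOP mRNAs with longer transcripts (median of 1591 bases) had a median of -0.86 and 8 of 16 called lower, against 11.6% of all tested genes. Eef1a1, which delivers aminoacyl-tRNA, was called lower (-1.21 ± 0.32, limma, adjusted p = 0.0190), at 974 ± 340 FPKM in 3mo control and 409 ± 2.13 FPKM in 18mo control (SD, n = 2). Eef2, which moves the ribosome along the mRNA, was not called and was positive (0.53 ± 0.22, adjusted p = 0.0728), and Eif3e had the lowest change of the list (-1.73, adjusted p = 0.00543). Initiation factors outside that list had a median of -0.24 with 8 of 29 called lower, against 11.6% of all tested genes, from -1.84 for Eif3k to 0.83 for Eif4g1, the cap-complex scaffold. Ribosome assembly genes had a median of -0.09 with 7 of 37 called lower, a share near that 11.6%, from -2.51 for Nop10 of the H/ACA complex to 0.84 for Polr1b of RNA polymerase I.

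Genes of the mTORC1 pathway, the longest transcripts of these lists (median of 5518 bases), had a median of 0.58, with 0 of 13 called lower and 2 called higher, where 11.6% of all tested genes were called higher. The called genes were Rps6kb2, an S6 kinase (1.34, limma, adjusted p = 0.00574), and Larp1, the TOP-binding repressor (1.05, adjusted p = 0.0176). Rps6kb1, the other S6 kinase, was not called (0.21, adjusted p = 0.298), and the mTORC1 activator Rheb had the lowest change (-0.93, adjusted p = 0.0107). In IOP eyes the counts called lower over the same lists in the same order were 5 of 6, 5 of 7, 7 of 16, 7 of 29, 6 of 37 and 0 of 13, where 11.6% of all tested genes were called lower, so that 6 of 37 lay near that share. There, 4 mTORC1 genes were called higher, as were 10.2% of all tested genes. Without 3mo control replicate 2 the counts called lower in control eyes were 4, 3, 3, 4, 3 and 0, with 1 mTORC1 gene called higher, in a fit that called 5.67% of all tested genes lower and 5.37% higher. Without replicate 1 they were 6, 6, 8, 9, 9 and 1, with 6 mTORC1 genes called higher, in a fit that called 15.2% lower and 19.1% higher. No gene of these lists was called after IOP at either age (limma), and 1 was called after 4 elevations, Eif4ebp1, an mTORC1-regulated inhibitor of cap binding (1.15, limma, adjusted p = 0.0121).

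Cell type markers also moved with age and were read beside these results. With age 11.6% of all tested genes were called lower in either eye. The share called higher was 11.6% in control and 10.2% in IOP eyes. The 6 rod markers were high in every library, and 1 of 6 was called lower with age in either eye, near the 11.6% of all tested genes. They summed to 20616 to 24059 FPKM in the 4 libraries at 3 months and to 11703 to 17221 FPKM in those at 18 months, so the ages did not overlap. At 18 months the IOP eyes, with 11703 and 14000 FPKM, lay below the control eyes, with 17221 and 15345 FPKM. After 4 elevations the sums were 4626 and 6960 FPKM against 9463 and 9882 FPKM in control. No rod marker was called in the IOP comparisons (limma), where 0.693% of all tested genes were called lower after 4 elevations. The summed level of 5 pigment epithelium markers was 72.4 to 225 FPKM in the 4 libraries at 3 months and 1.36 to 7.38 FPKM in those at 18 months, and all 4 of those tested were called lower. The 6 ganglion cell markers summed to 309 to 623 FPKM at 3 months and 30.3 to 83.5 FPKM at 18 months, with 5 of 6 called lower in control eyes, or 3 of 6 without either 3mo control library. Bipolar markers summed to 54.8 to 84.7 FPKM at 3 months and 181 to 253 FPKM at 18 months, with all 4 called higher. Their transcripts had a median of 4992.5 bases. Longer transcripts tended to be higher with age among other coding genes (Spearman rho of 0.412 in control eyes). Muller glia markers summed to 655 to 1024 FPKM at 3 months and 1432 to 2677 FPKM at 18 months, with 2 of 5 called higher in control eyes. Blood markers varied from 12.9 to 307 FPKM with 1 of 3 called higher, or 0 without either 3mo control library, and neither of the 2 lens markers tested was called.

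Microglia and leukocyte markers moved with IOP as well as age. Their sum at 3 months was 17.1 and 36.1 FPKM for control and 94.1 and 68.4 FPKM for IOP eyes, and at 18 months 60.7 and 70.2 FPKM against 192 and 97.0 FPKM. With age 4 of 6 were called higher in control eyes, against 11.6% of all tested genes. After a single elevation 0 of 6 were called at either age (limma), where 0.568% (3 months) and 0.117% (18 months) of all tested genes were called higher. After 4 elevations, they summed to 116 and 118 FPKM, against 8.73 and 8.83 FPKM in control. The 3 lens markers tested and all 6 microglia markers were called higher, against 5.45% of all tested genes. The 3 pigment epithelium markers tested were called lower, against 0.693%. The part of cell composition in the values of the ribosomal protein genes was not tested.

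The tables of the 2 experiments were normalized separately, so levels are only set side by side. The control eyes of the repeated experiment, from animals first treated at 3 months, had a median member level of 22.8 FPKM in both libraries, beside 41.4 and 92.8 FPKM in 3mo control and 24.4 and 23.0 FPKM in 18mo control. The ratio of 4xIOP control to 3mo control means had a median of 0.338 over the 79 members and was above 1 for 4, Rps13, Rplp2, Rpl13 and Rps10. Without 3mo control replicate 1 the median was 0.245 and 2 were above 1, Rpl13 and Rps10, and without replicate 2 it was 0.609 and 11 were above 1, alternatives chosen after seeing the data. With both libraries it ran from 0.0356 for Rpl35, at 404 FPKM in 3mo control and 14.4 FPKM in 4xIOP control, to 2.50 for Rps10, at 15.03 and 37.6 FPKM. Rpl35, whose start has the pyrimidine run of 18 bases shown above, has 4.91% unique 50-base words, with 12 other annotated genes sharing at least 1. These words came from a matched transcript of 946 bases, whereas the counted transcript has 446.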

How the data were processed

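Retinal RNA from 12 libraries was prepared with a strand-specific polyA kit, sequenced and, per the study's methods, aligned to mm10 with STAR 2.7.8a. The authors deposited FPKM values made with HOMER from unique exon tags, with 1 isoform per gene, in 2 tables normalized separately. Recovered reads (FPKM times length) were whole within 0.15 reads and were used for voom and for the share of reads.

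Values were tested as log2(FPKM + 0.5) for genes whose average reached 0.5 FPKM, with limma 3.58.1 in R 4.3.3 (all groups of a table in 1 fit, trended variance, Benjamini-Hochberg over all tested genes). Genes were called at an adjusted p of at most 0.05 and at least 2-fold, or at the adjusted p alone for the interaction. Single values were tested by exact permutation (scipy 1.17.1, Python 3.11.15), two-sided. On simulated data with 200 genes changed by 2 log2 units, 97.1% to 99.9% were recovered in the 2-group comparisons. The changed genes were drawn from all tested genes with independent noise, also for the interaction, so no shift shared by a library was included. For age in control eyes members had a median SE of 0.366, against 0.228 for all genes. The recovery therefore does not describe the members.

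The members and lists were chosen with earlier results of these data known. Members were named for their roles (stalk, paralogs and selected proteins of each subunit), as the 3 highest and 3 lowest changes of each comparison, as the 3 longest and shortest transcripts, as up to 12 departing from the members' median, and where they failed the filter. Extremes of pathway lists were named for age in control eyes only. Members named for lack of overlap, replicate spread or the ratio between tables were chosen after their values were seen.

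The labels tie no replicate number to an animal, so the numbers were not taken as pairs. Alternatives covered pseudocounts, filters, scaling, the length trend, voom, the variance trend, the block and left-out libraries.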

Additional observations from a re-analysis of the deposited data

How the results depend on the processing

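Among values of single named members, 1271 kept direction and side of the threshold under the alternatives, 64 lost the call, 6 gained it and 43 changed sign. With the length trend removed, also when fitted without the members, age in control eyes gave 43 and 43 called lower with medians of -1.04 and -1.07, and age in IOP eyes gave 28 and 30 with medians of -0.81 and -0.83. The median in IOP eyes was -1.38 with quantile normalization and -1.86 with voom. The cause of these shifts was not tested.

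Leaving out 1 library gave 29 to 73 members called lower with age in control eyes, with medians of -2.4 to -1.21, and 5 to 63 in IOP eyes, with medians of -1.88 to -1.55. The lowest counts came without 18mo control replicate 2 (29, against 4.12% of all tested genes) and without 3mo IOP replicate 1 (5, against 1.94%). The highest in control eyes came without 3mo control replicate 1 (73, against 15.2%). For IOP at 3 months it gave medians of -0.44 to 0.81 and 0 to 14 called, the 14 without 3mo control replicate 2 (1.84% of all tested genes called higher). For 18 months the medians were 0.24 to 0.39, and for 4xIOP -0.12 (without 4xIOP replicate 2) to 0.56 with 0 to 2 called. A lone library was assumed to vary like the other groups. The 18-month median was 0.17 with median-of-ratios scaling, 0.15 with quantile normalization, and 0.057 and 0.058 without the length trend. Without the 20 most abundant genes the share of reads differed by -1.37 percentage points between 18mo IOP and 3mo IOP, beside -1.13.

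With the length trend removed, age changes became positive for 9 members in control eyes and 11 in IOP eyes. Of these, the named members had, in this fit and in that fitted without the members, in control eyes Rplp2 (0.55, 0.51), Rpl10 (0.20, 0.17), Rps4l (0.71, 0.68), Rps13 (0.54, 0.50) and Rpl10a (0.42, 0.40), and in IOP eyes Rplp2 (0.63, 0.60), Rpl28 (0.72, 0.68), Rps13 (0.87, 0.84), Rpl10a (0.70, 0.68) and Rps4l (0.48, 0.46). Quantile normalization gave 0.21 for Rps4l in control eyes and 0.065 for Rpl10a in IOP eyes.

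Leaving out 1 library also changed the sign of single members, whose ranges follow. The range for age in control eyes was Rplp2 -0.96 to 0.068 and Rps4l -0.39 to 0.28. The range for age in IOP eyes was Rpl28 -0.77 to 0.079, Rps13 -0.38 to 0.032 and Rpl10a -0.34 to 0.11. The range for IOP at 3 months was Rpl38 -0.76 to 0.38, Rpl31 -0.40 to 0.18, Rps27 -0.24 to 1.20 and Rps27l -0.37 to 1.41. The range for IOP at 18 months was Rpl13 -0.15 to 0.11. The range for the interaction was Rps4l -0.63 to 0.042, Rpl13 -0.65 to 0.057, Rps15a -0.94 to 0.48 and Rps4x -0.012 to 0.89. The range for 4xIOP was Rps16 -0.73 to 0.18, Rpl10a -0.56 to 0.072 and Rps29 -0.31 to 0.045.

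Same-numbered control and IOP libraries deviated from their group means with correlations of -0.275 (3mo), -0.530 (18mo) and -0.290 (4xIOP), and no label says whether a number marks an animal, so the pairing could not be settled. The replicate block left 67 and 63 members called lower with age, with 1546 and 1548 of all genes called lower, beside 1590 and 1593 without it. In the IOP comparisons 0 members were called. Of all genes, 20, 0 and 864 were called at 3 months, at 18 months and after 4 elevations, beside 79, 17 and 843 without the block. With replicate numbers crossed, an alternative chosen after seeing the data, 0 members were called, and 312, 306, 0 and 894 of all genes were called at 3 months, at 18 months, in the interaction and after 4 elevations. With 2 libraries a group, small changes may go undetected.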
